A study of Mus musculus with 4 samples.

Results

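The regions described here are accessible sites that were called in the third of 4 DNase-seq libraries and in neither of the first 2. DNase-seq cuts open chromatin with DNase I and sequences the cut ends, so that a peak marks a stretch of DNA left free by nucleosomes. On chromosomes 1 to 19 of mouse build mm10 (GRCm38), peaks of the 4 longer lists that shared 1 bp or more were joined, which gave 84292 sites. Members were the 4568 of these sites with a peak in replicate 3, with or without one in replicate 4, and with none in replicates 1 and 2. They were 4568 of the 47546 sites called in replicate 3, and the other 42978 were shared with replicate 1, replicate 2 or both. The members were thus selected on the measured calls, and replicate 3 heights and calls in replicates 1 and 2 are given below as description only.

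All 4 libraries were labelled biological replicates of 1 group of alpha-beta T cells, CD8-positive, naive and resting, taken at 2 months of age from virgin female mice of the B6CASTF1/J cross. No treatment, transgene or second genotype was given. The biosamples were separate but carried 1 shared donor identifier, and nothing states that each came from a separate animal or how the cells were sorted. With 1 group and a set defined by single libraries no test between conditions was possible. Shares are therefore set beside those of other classes of site, with exact (Clopper-Pearson) 95% intervals that cover counting error only. These intervals count each site as independent and are too narrow where sites cluster.

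A DNase hypersensitive site is usually a promoter, an enhancer or an insulator bound by transcription factors. Promoters of widely used genes are open in most cell types, while enhancers are open in the lineages that use them. B cells open the genes of their receptor complex, such as Cd79a and Cd79b, under EBF1, PAX5, E2A proteins and octamer factors. CD8 T cells keep those genes closed and use RUNX3, TCF-1, LEF1 and ETS1 at theirs. In a bulk library a low peak can come from few cells with an open site or from weak opening in many, and these cannot be told apart.

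Stretches of 8 member sites are printed because they stand for the kinds of site described below: B cell genes, sites with an EBF1 match, a site beside a shared promoter peak, and a block of clustered peaks. They are the plus strand of the RefSeq GRCm38.p6 genome, 5′ to 3′, in lower case, with capitals for every match to one of the 32 searched motifs on either strand. Cd79a, at chr7:24897181-24897380, is the part of the site upstream of the gene and holds a ZEB E-box (CAGGTG, in 10.8% of all sites). Cd79b, at chr11:106314598-106314627, holds an octamer match (ATGCAAAT) and an EBF1 match (CCCNNGGGA). Ebf1 intron, at chr11:44744623-44744760, holds an E2A E-box (CAGCTG, in 6.80% of all sites). Ets1 at chr9:32699591-32699690, Cd2 at chr3:101297347-101297446 and Tmem121 at chr12:113228324-113228423 are the central windows of 3 sites with an EBF1 match. That of Ets1 also holds a match for TCF7/LEF1 (ATCAAAG), and that of Cd2 a ZEB E-box and a match for NFY (CCAATCA, in 1.65% of all sites). That of Tmem121 also holds an octamer and a match for NF-kB (GGGNNTTCC, in 1.96% of all sites). The Tmem121 site is intergenic and is named after its nearest protein-coding gene. Sept7 is at chr9:25252181-25252260, with no match, and Zfp978 domain is at chr4:147349481-147349760, with an E2A E-box.
Cd79a: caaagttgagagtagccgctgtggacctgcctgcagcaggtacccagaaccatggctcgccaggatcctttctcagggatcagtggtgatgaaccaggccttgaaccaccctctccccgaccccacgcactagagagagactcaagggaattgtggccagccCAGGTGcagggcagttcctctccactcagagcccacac
Cd79b: tgccATGCAAATtgagaCCCAGGGGAggca
Ebf1 intron: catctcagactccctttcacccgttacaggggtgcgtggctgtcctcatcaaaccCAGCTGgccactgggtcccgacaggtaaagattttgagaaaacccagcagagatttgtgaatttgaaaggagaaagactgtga
Ets1 EBF1 match: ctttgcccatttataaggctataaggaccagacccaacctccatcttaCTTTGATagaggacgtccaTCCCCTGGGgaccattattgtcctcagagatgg
Cd2 EBF1 match: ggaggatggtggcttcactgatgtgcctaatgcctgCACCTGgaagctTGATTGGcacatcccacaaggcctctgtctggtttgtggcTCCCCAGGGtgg
Tmem121 EBF1 match: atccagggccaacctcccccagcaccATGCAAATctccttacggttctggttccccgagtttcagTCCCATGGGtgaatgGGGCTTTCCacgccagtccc
Sept7: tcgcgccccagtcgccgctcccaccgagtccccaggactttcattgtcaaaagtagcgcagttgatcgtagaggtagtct
Zfp978 domain: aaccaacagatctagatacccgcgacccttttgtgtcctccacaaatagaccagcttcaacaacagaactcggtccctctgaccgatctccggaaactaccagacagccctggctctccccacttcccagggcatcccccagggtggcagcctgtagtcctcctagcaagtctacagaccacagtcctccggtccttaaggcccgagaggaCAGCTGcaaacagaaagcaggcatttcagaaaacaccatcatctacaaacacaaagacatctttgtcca

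The libraries differed in depth and scale. Their longer lists held 51121 peaks in replicate 3, against 69413, 70552 and 20647 in replicates 1, 2 and 4. Low heights were whole multiples of a step per library, whose reciprocal read as 91.5 M tags in replicate 3 and 109, 62.9 and 24.3 M in replicates 1, 2 and 4. The lowest height listed was 0.0984 in replicate 3, against 0.101, 0.127 and 0.411 in replicates 1, 2 and 4. Heights are therefore also given as relative heights, each divided by its library's median at the 17134 sites that all 4 libraries called.

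The labelled cell type was checked at marker promoters, within 1 kb of a start, before the members were described. All 6 T cell identity promoters (Cd3d, Cd3e, Cd3g, Lck, Zap70 and Lat) were called in replicate 3, as in replicates 1 and 2, against 3 in replicate 4. Of the CD8 lineage, Cd8b1 and Runx3 were called in every library, while Cd8a was called in replicates 1 and 2 only. Cd4 was called in none, and Zbtb7b, the helper lineage factor, had relative heights of 0.741 in replicate 3 and 0.249, 0.355 and 1.12 in replicates 1, 2 and 4. Of 6 B cell promoters, 5 were called in replicate 3, against 4, 3 and 3 in replicates 1, 2 and 4, with summed relative heights of 2.70 in replicate 3 and 1.04, 1.10 and 3.12 in replicates 1, 2 and 4. Pax5 stood at 1.01 in replicate 3, against 0.579, 0.642 and 1.67 in replicates 1, 2 and 4, Ebf1 at 0.724 against 0.244, 0.411 and 0.772, and Ms4a1 at 0.273 against 0.0661, 0.0453 and 0. Promoters of neutrophil genes (S100a8, S100a9, Mpo and Elane) and NK genes (Ncr1 and Klrb1c) were called in no library, and of the 4 monocyte genes Csf1r and Adgre1 were at 0 in all. Cd68 stood at 0.447 in replicate 3, against 0.262, 0.315 and 0 in replicates 1, 2 and 4, and the monocyte promoters summed to 0.584 in replicate 3, against 0.416, 0.402 and 0. The 3 dendritic promoters summed to 0.338 in replicate 3, against 0.227, 0.170 and 0.333. Zbtb46 gave 0.188 of the replicate 3 sum at a site that is itself a member, so nothing is read from this sum. The library labelled replicate 3 thus lacked a call at Cd8a and had higher relative heights than replicates 1 and 2 at Pax5, Ebf1 and Ms4a1. Cd79a and Cd79b, at 0.345 each in replicate 3, are in the B cell sum above but not counted here, since their promoter sites are members. The part of B cell, monocyte or dendritic chromatin in the member list was not tested.

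Members were mostly low peaks at narrow sites. Their replicate 3 heights ran from 0.0984 over a median of 0.426 to 6.17, against 0.142, 1.18 and 141 at the sites shared with replicate 1 or 2. Relative to the sites of all 4 libraries the medians were 0.133 for members and 0.369 for shared sites. The median member was 99 bp wide, against 240 bp for shared sites. Part of this gap is built in, since a shared site spans the joined peaks of several libraries and wide peaks meet the 1 bp overlap more easily. A wider site also meets intervals, footprints and replicate 4 peaks more easily, and the shares below are not matched for width. Of the members 3401 (74.5%) fell in the lowest of 5 equal groups of replicate 3 heights, which ends at 0.547. Of the deposited peaks on chromosomes 1 to 19, 4862 of replicate 3 (9.77%) stood at or below the members' median height, against 11925 of replicate 1 (17.7%), 2924 of replicate 2 (4.26%) and 1 of replicate 4 (0.00497%).

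The edge of the rule was fine-grained. The lowest members, near Gas8, Sdc1 and Gm3526, had heights of 0.0984 and no peak in any other library, and the nearest peak of replicate 1 or 2 was 8478, 10734 and 204244 bp away. The shared sites with the lowest heights in replicates 1 and 2, 3 sites nearest to Vmn1r2, had 0.138, 0.147 and 0.156 in replicate 1 and 0.230, 0.197 and 0.164 in replicate 3. Among 45088 replicate 3 peaks that overlapped replicate 1 or 2, 304 (0.674%) did so by at most 20 bp.

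**Figure D1:**
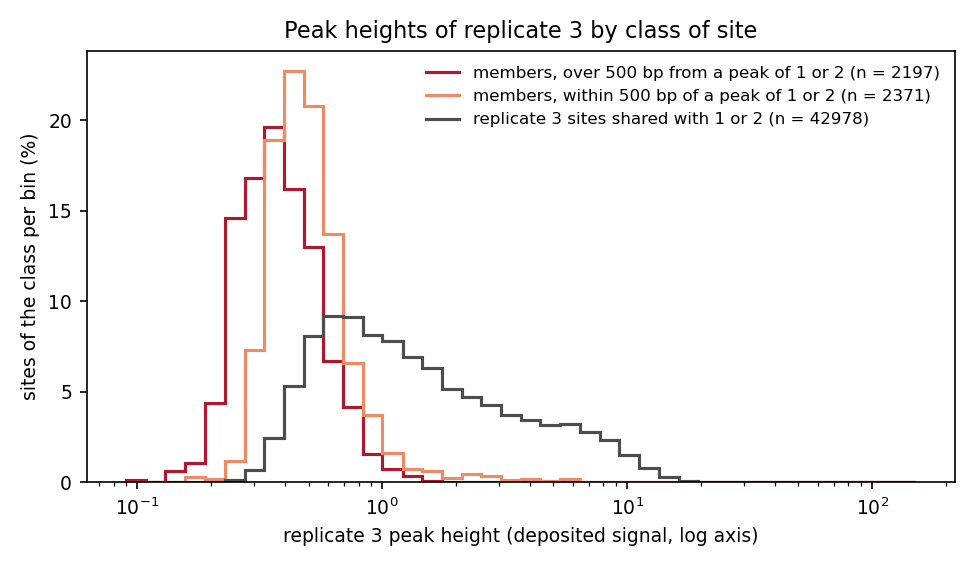
Replicate 3 peak height (x axis, deposited signal, log scale) against the percent of sites of each class per bin (y axis). Members over 500 bp from a peak of replicate 1 or 2 (n = 2197, median 0.372), members within 500 bp of one (n = 2371, median 0.470) and shared sites (n = 42978, median 1.18) are drawn as outlines, and both member outlines lie to the left of the shared one.

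The members fell into 2 kinds by their distance from the peaks of replicates 1 and 2. The median distance was 449 bp. Of the members 100 (2.19%) touched a peak of replicate 1 or 2, 1008 (22.1%) lay within 100 bp and 2371 (51.9%) within 500 bp. These 2371 are called adjacent members, and the other 2197 (48.1%) isolated members. Adjacent members had a median height of 0.470 and reached 6.17, while isolated members had a median of 0.372 and reached 1.64. Of the adjacent members 83.3% had another replicate 3 peak within 500 bp, against 13.8% of isolated members and 30.2% of shared sites. Adjacent members were thus mostly parts of a group of peaks, and isolated members mostly stood alone.

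The cut-rate lists, the deposited intervals with a false discovery rate below 0.05 for DNase cutting, are a separate kind of call from the same libraries. Of the 4568 members, 1266 (27.7%, interval 26.4 to 29.0) overlapped an interval of replicate 1 and 878 (19.2%, 18.1 to 20.4) one of replicate 2. At all sites of replicate 3 the shares were 91.1% and 89.6%. Since the absence of a peak in replicates 1 and 2 chose the members, nothing is read from this gap. Within the members, 1508 (33.0%) had an interval in at least 1 of the 2 libraries and 636 (13.9%) in both. Adjacent members had intervals far more often: 1158 (48.8%) in replicate 1 and 767 (32.3%) in replicate 2, against 108 (4.92%) and 111 (5.05%) of isolated members. The exact intervals of the isolated shares were 4.05 to 5.90 and 4.17 to 6.05, above the windows 5 kb to either side of isolated members, which had an interval at 2.48% in replicate 1 and 2.32% in replicate 2. The cut-rate lists covered a mean of 1.81% of the width of an isolated member in replicate 1 and 1.03% in replicate 2. With intervals below 0.001 only, 20 isolated members remained with one in replicate 1 and 5 in replicate 2. Shared sites in the same lowest group of heights had an interval at 91.8% in replicate 1 and 87.6% in replicate 2, against 21.9% and 13.3% of members in that group. The mirror class, sites of both replicates 1 and 2 absent from replicate 3, had a replicate 3 interval at 2111 of 11548 (18.3%), and at 927 of 9400 (9.86%) where no replicate 3 peak lay within 500 bp.

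**Figure D2:**
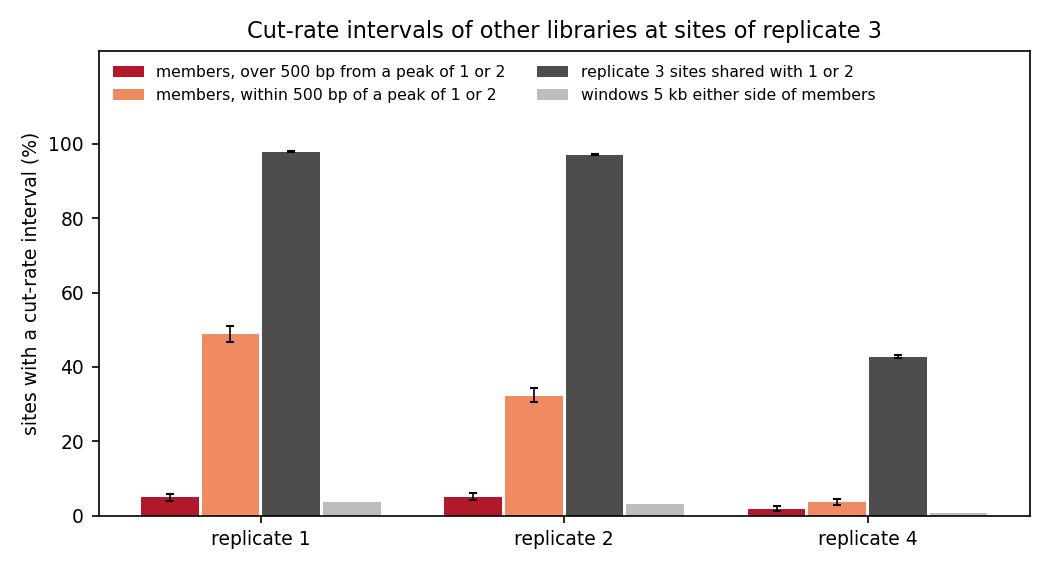
Percent of sites with a cut-rate interval (y axis) in replicates 1, 2 and 4 (x axis), with exact 95% intervals as error bars, for isolated members, adjacent members, shared sites and windows 5 kb to either side of members. In replicates 1 and 2 isolated members (4.92% and 5.05%) stand above the windows beside members (3.59% and 3.04%), and adjacent members (48.8% and 32.3%) stand between these and shared sites (97.9% and 97.1%).

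The rule allowed but did not ask for a peak in replicate 4, whose peaks took part only in the merge. It had a peak at 81 of the 4568 members (1.77%, interval 1.41 to 2.20), against 17354 of 42978 shared sites (40.4%) and 36.7% of all sites of replicate 3. The merge itself lowered the count, since a replicate 4 peak can join a site to one of replicate 1 or 2. With replicates 1 to 3 merged alone, 103 of 4590 members (2.24%) overlapped a replicate 4 peak. The share was 10.7% where 50% reciprocal overlap was needed to remove a peak and 48.5% when each library was limited to equally many of its highest peaks. The sites of both replicates 1 and 2 absent from replicate 3 were called in replicate 4 at 265 of 11548 (2.29%). Replicate 4 cut-rate intervals lay at 128 members (2.80%), against 42.7% of shared sites and 38.9% of all sites of replicate 3. Calls in replicate 4, the shallowest library, also varied with height: it called 2.62% of shared sites in the lowest of the 5 height groups and 96.7% in the highest. Members were below shared sites in each group. In the lowest group 1.00% of members had a replicate 4 peak, in the next 1.46% against 6.25% of shared sites, and then 12 of 215 (5.58%) against 20.4%. In the 2 highest groups 13 of 48 members (27.1%) were called, against 58.9% of shared sites, and 9 of 16 (56.2%) against 96.7%. By distance, replicate 4 called 34 of 2197 isolated members (1.55%) and 47 of 2371 adjacent members (1.98%). The 81 sites had replicate 4 heights from 0.493 to 4.44, and 51 of them lay within 1 kb of a start.

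**Figure D3:**
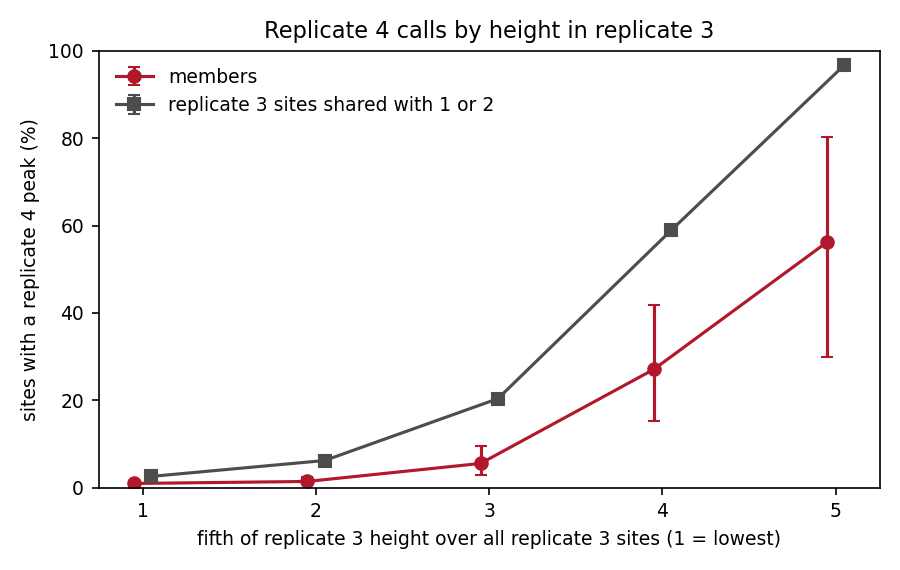
Percent of sites with a replicate 4 peak (y axis) by 5 equal groups of replicate 3 height from lowest to highest (x axis), for members and shared sites with exact 95% intervals. Members lie below shared sites in every group, from 1.00% against 2.62% in the lowest to 56.2% against 96.7% in the highest, which holds 16 members.

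Adjacent and isolated members differed in where they lay. Of the members 1773 (38.8%, interval 37.4 to 40.2) were within 1 kb of an annotated start, against 46.0% of shared sites and 24.2% of the sites of both replicates 1 and 2 absent from 3. The share was 54.3% of adjacent and 22.1% of isolated members, against 29.2% of shared sites in the lowest height group. Introns held 27.2% of members, intergenic sequence 27.7% and exons outside start windows 6.28%, against 25%, 23.5% and 5.49% of shared sites. The median distance to the start of a coding gene was 1073 bp for adjacent and 16867 bp for isolated members. A replicate 3 footprint, a short protected stretch within a cut region, overlapped 1460 members (32%), against 83.2% of shared sites and 44.7% of shared sites in the lowest height group. Replicate 1 and 2 footprints overlapped 69 and 36 members (1.51% and 0.788%). Members held a median of 8 CpG in 500 bp, against 11 at shared sites. Mostly repeat-masked were 15.6% of isolated and 7.21% of adjacent members, against 5.35% of shared sites. The central 36 bases of 9.29% of isolated members had further exact copies in the genome, against 1.66% of shared sites.

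The 10 highest members all lay beside peaks of replicates 1 or 2 at promoters. They had replicate 3 heights of 4.02 to 6.17, lay within 1 kb of a start and 0 to 200 bp from a peak of replicate 1 or 2, and were covered over their whole width by cut-rate intervals of both. All 10 had a replicate 4 cut-rate interval and 5 had a replicate 4 peak. Cdca2, a nuclear regulator of protein phosphatase 1, had the highest at chr14:67715461-67715580, with 6.17 in replicate 3, 2.80 in replicate 4 and no peak in replicates 1 and 2. A site at the divergent Bbip1 and Shoc2 starts had 6.0 in replicate 3 and 3.41 in replicate 4. Hnrnph1, an RNA-binding splicing regulator, had 5.73 and 4.44, Trappc13, a subunit of a vesicle tethering complex, 4.55 and 1.93, and D6Wsu163e 4.20 and 1.23. The septin gene Sept7 (5.84, sequence above), the poly(A)-binding protein gene Pabpc1 (5.18), Ccny, a cyclin (4.31), Ptma, prothymosin alpha (4.22), and Apbb3 (4.02) had no replicate 4 peak. What replicates 1 and 2 lacked at these sites was a listed peak, not a cut-rate interval.

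Among members with the highest replicate 4 peaks were more promoters of the same kind. Wasf2, an actin regulator, had 3.05 in replicate 3 and 3.41 in replicate 4. Vps8, an endosomal tethering subunit, had 2.46 and 2.39, and Smarca4, the ATPase of a chromatin remodelling complex, 2.51 and 1.89. Usp25, a deubiquitinase, had 2.30 and 1.97, and Rnf145, a ubiquitin ligase, 1.74 and 2.01. Gm15319 had 1.09 and 2.10 at a site whose central 36 bases occur 4 times in the genome. None of these sites had a peak in replicates 1 and 2.

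Isolated members give the sites with neither a peak nor, for the most part, a listed cut-rate interval in replicates 1 and 2. Cutting below the limit of those lists is not seen. Their 10 highest had heights of 1.24 to 1.64, all with a replicate 3 footprint, and 4 lay within 1 kb of a start. Cyth1, a guanine exchange factor of leukocyte adhesion, led with 1.64 in replicate 3 and 1.56 in replicate 4 at chr11:118211904-118212320. The catalytic subunit of DNA polymerase delta, Pold1, had 1.45, and Sgms1, a sphingomyelin synthase, 1.38, both without a replicate 4 peak. A site in an intron of Ets1, a lymphocyte transcription factor, had 1.36 at chr9:32699442-32699840, 2557 bp from the nearest peak of replicate 1 or 2, and its EBF1 and TCF7/LEF1 matches are printed above. The remaining 6 were nearest to 4930467E23Rik (1.31), Duxf3 (1.30), Tbkbp1 (1.30), Lhx9 (1.26), Il10ra (1.26) and Fcgr3 (1.24). Fcgr3, an Fc receptor of myeloid and NK cells, also had a replicate 4 peak of 1.48, and its central 36 bases occur at 2 places.

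Nearest genes were read from 20 lists of blood lineage and control genes with 298 genes on these chromosomes, and 186 members (4.07%) were nearest to one. The other 4382 were nearest to none, so each list covers a small part of the set. Only starts annotated as protein-coding could be nearest, so the counts leave out immunoglobulin and T cell receptor gene segments. B cell genes were nearest to 27 members (0.591%, interval 0.390 to 0.859), against 77 of 42978 shared sites (0.179%, 0.141 to 0.224), 0.180% of shared sites in the lowest height group and 11 of 11548 sites of both replicates 1 and 2 absent from 3 (0.0953%). Isolated members contributed 18 of the 27 (0.819% of isolated members). These 27 spread over 15 of 23 B cell genes, and 8 genes, with Ms4a1 and Pou2af1 among them, had no member.

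The receptor chains Cd79a and Cd79b had the highest B cell members. The Cd79a site, at chr7:24897181-24897654 over the start of the gene, had a height of 1.10 in replicate 3 and 1.60 in replicate 4, with no peak and no cut-rate interval in replicates 1 and 2. Its nearest replicate 1 or 2 peak was 4206 bp away. The Cd79b site over the start, at chr11:106314492-106314715, had 1.10 in replicate 3 and no peak in the other libraries. It held 11 bp of a replicate 1 interval, none of replicate 2 and 32 bp of replicate 4, and the nearest replicate 1 or 2 peak was 700 bp away. Within 1 kb of the Cd79b start replicate 1 did have a peak, of relative height 0.154. Further Cd79b sites had 0.929, intergenic and 6089 bp from the start, and 0.798, in an intron of Scn4a and 94 bp from a replicate 1 or 2 peak. The Cd79b promoter stretch printed above is where an octamer and an EBF1 match stand 5′ to 3′ within 30 bases.

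Transcription factors of the B lineage followed. Pax5 had members of 0.754 near its start, 0.579 in an intron and 0.350 in intergenic sequence, and Ebf1 had 4, all in introns, of 0.492, 0.437, 0.372 and 0.328. The Ebf1 member of 0.437 at chr11:44744623-44744760 also had a replicate 4 peak of 1.03 and lay 20300 bp from a replicate 1 or 2 peak. It and Cd79a were the 2 B cell members called in replicate 4. Pou2f2, the octamer factor Oct-2, had 0.601 and 0.590. Signalling genes were Blnk, the adaptor below the receptor (0.612, 0.448 and 0.394), and Blk, a Src family kinase (0.579). A site 57032 bp from a start of Ralgps2 had 0.656, and Bank1, a B cell scaffold protein, had 0.317. Surface genes were Cd22, an inhibitory receptor (0.459 and 0.437), the Fc receptor-like genes Fcrl1 (0.590) and Fcrla (0.547), Tnfrsf13b, the receptor TACI (0.568), and Cd24a (0.459 and 0.361), with Vpreb3, a pre-B cell receptor protein, at 0.612. Of the 27 sites 4 overlapped a replicate 1 interval, 4 a replicate 2 interval and 19 neither, and 7 lay within 1 kb of a start. Over all members 27.7% overlapped a replicate 1 interval, 19.2% a replicate 2 interval and 33.0% at least 1 of these. Most members thus lacked both, and 38.8% lay within 1 kb of a start.

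Outside the member set, sites near B cell genes and near several other lists were often highest in replicate 3. Among 39729 sites called in replicates 1, 2 and 3, replicate 3 had the highest relative height of the 3 at 39.6%. At the 67 nearest to a B cell gene it did so at 42 (62.7%), with medians of 0.345 in replicate 3 and 0.256 and 0.260 in replicates 1 and 2. The share was similar at dendritic genes (38 of 62, 61.3%) and neural genes (11 of 17, 64.7%), and replicate 3 was the highest at 18 of 36 sites near monocyte genes and 10 of 20 near plasma cell genes. At 162 sites nearest to a T cell identity gene replicate 3 was the highest at 31 (19.1%) and the lowest at 89 (54.9%). Over all 39729 sites it was the lowest at 35.1%. Medians at the 162 sites were 0.394 in replicate 3 and 0.525 and 0.431 in replicates 1 and 2. Other T cell lists varied. Replicate 3 was the highest at 46.5% of sites near CD8 lineage genes and 42.0% near naive and quiescent genes. Near cytotoxic and helper genes it was the highest at 31.2% and 29.6%.

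Plasma cell genes were nearest to 13 members (0.285%, interval 0.152 to 0.486), against 23 shared sites (0.0535%). Sdc1, the surface proteoglycan CD138, had 7 with heights from 0.0984 to 0.503, and 6 of these stood in a single block of 2.14 kb. Prdm1, which encodes Blimp-1, had 5 with heights up to 0.667, and Mzb1, a chaperone of antibody secretion, 1 of 0.536. These 3 genes are thus the whole of the list's count, and the interval, which counts the clustered Sdc1 sites as independent, is too narrow.

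Dendritic and antigen presenting genes were nearest to 26 members (0.569%, interval 0.372 to 0.833), against 75 shared sites (0.175%). Of these 15 were nearest to Cd74, the invariant chain of MHC class II, which B cells also express, with heights from 0.558 to 1.09, and some lie in the neighbouring gene Tcof1. The interval counts these clustered sites as independent and is too narrow. H2-Eb1, an MHC class II beta chain, had 1.08, Cd83, an activation marker, 0.645 and 0.328, and Zbtb46, a dendritic cell factor, 0.601 and 0.426. The Cd83 sites lay 173906 and 336939 bp from its start. Monocyte and macrophage genes were nearest to 11 members (0.241%, 0.120 to 0.430), against 44 shared sites (0.102%). Beside Fcgr3 they were led by Spi1, which encodes PU.1 and serves B cells too, with 0.787 at chr2:91096546-91097100 and no interval in replicates 1, 2 or 4. Cd68, a macrophage endosomal protein, had 0.601 and Fcgr1, the high-affinity IgG receptor, 0.590. Csf1r had no member.

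Genes of T cell identity and of naive T cells had shares of members that could not be told from those of shared sites at this count. T cell identity genes were nearest to 18 members (0.394%, interval 0.234 to 0.622), against 174 shared sites (0.405%, inside that interval) and 77 sites of both replicates 1 and 2 absent from 3 (0.667%). The order turned with the shorter peak lists (0.542% of members against 0.309% of shared sites) and with sites assigned by gene bodies plus 25 kb (0.701% against 0.426%). Tcf7, which encodes TCF-1, had 9 with heights from 0.306 to 0.525, all in introns. Ets1 had 1.36, 1.15 and 0.820, Cd2, an adhesion receptor that B cells of the mouse also carry, 1.26, 1.02 and 0.525, Trat1 0.361 and Themis 0.284. None of the 18 was within 1 kb of a start, and 16 of 22 genes had no member. Naive and quiescent T cell genes were nearest to 24 members (0.525%, interval 0.337 to 0.781), against 0.668% of shared sites and 0.736% of the sites of both replicates 1 and 2 absent from 3. The highest were Slfn2, a quiescence factor (1.81, with intervals over 340 bp in replicate 1 and 238 bp in replicate 2), Satb1, a chromatin organiser (1.05), Ccr7, the lymph node homing receptor (0.962), and Foxp1, a regulator of quiescence (0.940). A further Satb1 site, of 1.02, had a replicate 4 peak of 1.48.

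CD8 lineage genes were nearest to 3 members (0.0657%), all at Runx1 and none at Cd8a or Cd8b1, against 0.107% of shared sites. Helper and regulatory T cell genes were nearest to 11 (0.241% against 0.202%), of which Gata3, the factor of type 2 helper cells, had 7, up to 0.721. Sites nearest to Bcl6, the factor of follicular helper cells, the cytokine gene Il5 and the costimulator Icos had 0.492, 0.481 and 0.415. They lay 197314, 14675 and 161614 bp from a start of these genes. Cd4 and Zbtb7b had no member. Cytotoxic effector and memory genes were nearest to 9 (0.197% against 0.209%), led by a site of 1.51 nearest to Tbx21, the factor T-bet. Id2 had 0.503, Klrg1 0.383 and a site 162194 bp from Zeb2 0.437. Thymocyte genes were nearest to 9 (0.197% against 0.0977%), 6 of them at Hes1, a target of Notch, with Dtx1 highest at 1.20 and Arpp21 at 0.579. NK cell genes were nearest to 5 members (0.109% against 0.0861%), with Klrb1c at 0.667 and Nfil3 at 0.492 the highest. Stem and progenitor genes were nearest to 7 (0.153% against 0.0954%), with Lmo2 at 0.503 and Erg at 0.426. Erythroid genes had 2 (0.0438% against 0.0302%), Ank1 the higher at 0.361. Neutrophil genes had 1 (0.0219% against 0.0372%), of 0.404 and 173950 bp from Csf3r. Mast cell genes had 1 (Hdc, 0.634, 0.0219% against 0.0256%) and megakaryocyte genes 0, against 0.0535% of shared sites. Control lists gave 7 members for stromal, endothelial and epithelial genes (0.153% against 0.130%). The highest of these, of 0.918, lay 166609 bp from the matrix gene Dcn. Neural genes were nearest to 6 (0.131% against 0.0419%), led by Gad1, an enzyme of GABA synthesis, at 0.689. Hepatocyte genes were nearest to 3 (0.0657% against 0.0140%), the highest of 0.339 each at 509628 bp from Apob and 31773 bp from Ttr. Housekeeping genes were nearest to 3 (0.0657% against 0.149%), with Actb at 1.14. Shares above those of shared sites thus also occurred at lists outside the blood, with few sites each.

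**Figure D4:**
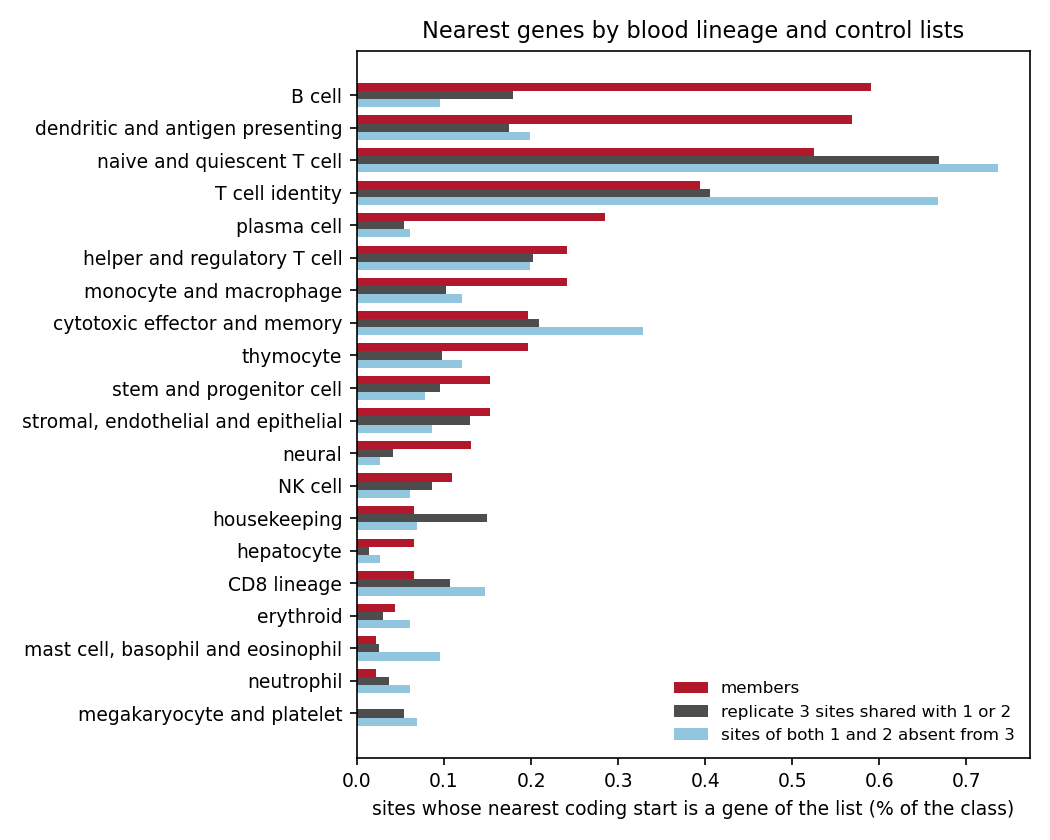
Percent of each class of site whose nearest coding start belongs to a gene list (x axis), for 20 lists (y axis), with bars for members, shared sites and sites of both replicates 1 and 2 absent from 3. Members stand highest at the B cell list (0.591% against 0.179% and 0.0953%) and the dendritic list (0.569% against 0.175% and 0.199%), and lie below the sites absent from replicate 3 at T cell identity genes (0.394% against 0.667%). Of the 26 members of the dendritic list 15 are clustered near Cd74.

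Sequence motifs, which the rule did not use, were searched in the central 100 bp of each site on both strands. The EBF1 consensus (CCCNNGGGA) stood in 166 members (3.63%, interval 3.11 to 4.22), against 2.28% of shared sites (2.14 to 2.43), 1.53% of the sites of both replicates 1 and 2 absent from 3, 2.19% of all sites and 1.52% of windows 1 kb to either side of members. Isolated members over 1 kb from a start held it at 81 sites (4.73%, 3.78 to 5.85), against 1.74% of shared sites over 1 kb from a start. The octamer (ATGCAAAT) stood in 35 members (0.766%, 0.534 to 1.06), against 0.451% of shared sites, 0.432% of all sites and 0.602% of the windows beside members, which lies inside the members' interval. PU.1 (GAGGAAGT) stood in 1.84% of members and 2.87% of isolated members, against 1.87% of shared sites, 2.47% of shared sites in the lowest height group, 1.80% of all sites and 0.493% of the windows beside members.

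RUNX, ETS and CTCF matches were less frequent in members than in shared sites, and TCF7/LEF1 matches were not. Against shared sites of the lowest height group the gap remained for RUNX and CTCF but not for ETS. RUNX (TGTGGTT) stood in 130 members (2.85%, interval 2.38 to 3.37), against 3.83% of shared sites, 5.76% of shared sites in the lowest height group, 7.68% of the sites of both replicates 1 and 2 absent from 3, 4.57% of all sites and 2.15% of the windows beside members. CTCF, the insulator factor, had its consensus in 14 members (0.306%, 0.168 to 0.514), against 9.17% of shared sites, 7.42% of those in the lowest height group and 6.29% of all sites. ETS (CCGGAAG) stood in 1.09% of members (0.813 to 1.44), 3.89% of shared sites and 2.66% of all sites. Shared sites in the lowest height group held it at 1.28%, inside the members' interval. TCF7/LEF1 (ATCAAAG) stood in 1.34% of members, against 1.26% of shared sites, 1.87% of those in the lowest height group, 2.20% of the sites of both replicates 1 and 2 absent from 3 and 1.49% of all sites. The promoter motifs NRF1 (GCGCNTGCG), EGR (GCGGGGGCG) and CREB (TGACGTCA) stood in 0.306%, 0.175% and 0.175% of members, against 2.68%, 0.907% and 0.905% of shared sites. In shared sites of the lowest height group they stood at 0.426%, 0.213% and 0.147%, close to the members.

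By the ratio of the share in members to that in shared sites, the highest of 32 families were GATA (1.78), the octamer (1.70), NFAT (1.69), EBF1 (1.59), ROR (1.53) and C/EBP (1.24). The GATA consensus, AGATAAG, stood in 1.09% of members and 1.35% of the windows beside them, NFAT (TGGAAAA) in 2.17% and 2.80%, ROR (TAGGTCA) in 0.919% and 0.974%, and C/EBP (TTGCNNAA) in 3.74% and 4.08%. For these 4 the members thus did not exceed their own surroundings. Their shares of all sites were 0.806%, 1.45%, 0.702% and 3.08%. A match is a description of the letters and shows no binding.

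Members also clustered. Chained at gaps of at most 2 kb, 302 members (6.61%) formed 68 blocks of at least 3 members, a definition made after the data were seen, against 256 (2.22%) in 79 blocks for the sites of both replicates 1 and 2 absent from 3. The largest block held 29 members in the first class and 7 in the second, and 3 of the 68 blocks had a replicate 4 call. The 29 lay at chr4:147337013-147353893, nearest to the zinc finger genes Zfp978 and Zfp988, with heights from 0.142 to 0.765. This 16.9 kb block had 11957 bp of cut-rate intervals in replicate 3 and 0 in replicates 1, 2 and 4, and the nearest replicate 1 or 2 peak was 117456 bp away. Of its members 18 had central 36 bases found more than once in the genome and 12 were mostly repeat-masked.

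Further blocks lay mostly in sequence found once. At chr7:64075359-64083580, nearest to the cation channel gene Trpm1, 15 members spanned 8.22 kb, with 6333 bp of intervals in replicate 3, against 238, 246 and 0 bp in replicates 1, 2 and 4, and 1 of them had a repeated centre. At Cd74 and Tcof1 12 members spanned 6.26 kb with heights from 0.590 to 1.09, and 3480 bp were covered in replicate 3 and 0 in the other libraries. At St3gal4, a sialyltransferase gene, 9 members spanned 7.21 kb, with 3113 bp in replicate 3 and 0 in the others. The Sdc1 block of 6 members had 1274 bp in replicate 3 and 0 in the others, and a block of 7 at the homeobox gene Otx1 had 1451 bp and 0. Other blocks lay among sites that replicate 1 also called. A block of 8 members in Tcf7 held 2555 bp of replicate 3 intervals and 2209, 0 and 0 bp of replicates 1, 2 and 4, and a block of 7 at Klf6 3213 bp in replicate 3 and 2054, 455 and 0 bp in replicates 1, 2 and 4. By gene, the most members were nearest to Vmn1r2 (18), Trpm1 (16), Zfp988 (16), Cd74 (15), Zfp978 (13), Klf6 (11) and Skp1a (10), then Gse1, Otx1, St3gal4 and Tcf7 with 9 each. The Skp1a members lay 13317 to 22677 bp from its start, and a block of 6 of them, at chr11:52250181-52254583, overlapped the gene Tcf7.

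**Figure D5:**
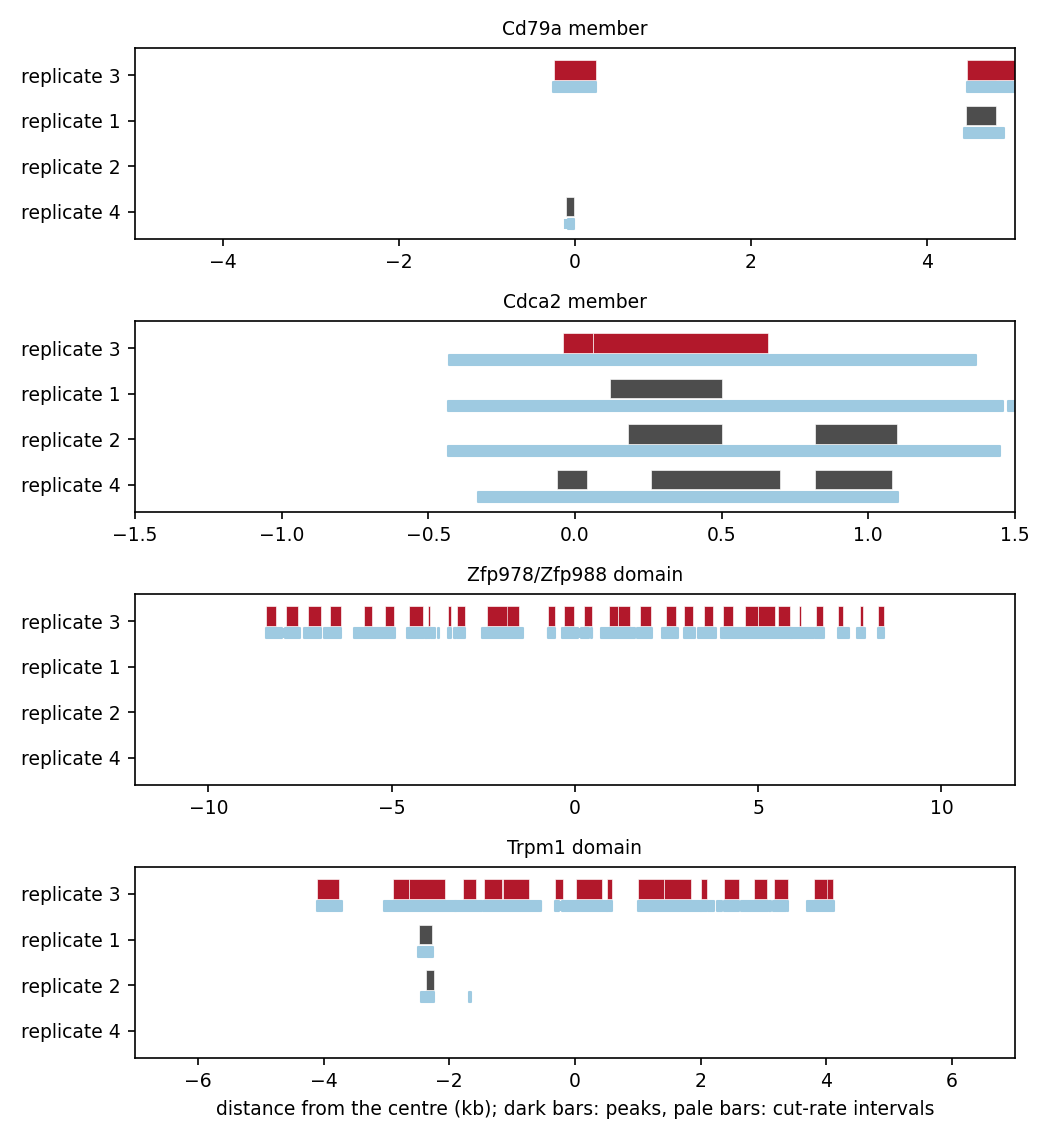
Peaks (dark bars) and cut-rate intervals (pale bars) in replicates 3, 1, 2 and 4 from top to bottom, by distance from the centre in kb (x axis), at the Cd79a member, the Cdca2 member, the Zfp978/Zfp988 block and the Trpm1 block (blocks are titled domains). At Cd79a replicates 1 and 2 have no interval over the site, at Cdca2 their intervals run through it, and over the Zfp978/Zfp988 block replicate 3 is covered for 11957 bp and the others for 0.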

How the data were processed

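DNase-seq peaks, footprints and cut-rate intervals of 4 libraries of 1 group were read as deposited on mm10 (GRCm38). Every list comes from the filtered alignment of that library alone, per the deposited README text. Which aligner and peak caller were used, and with what thresholds, is not given in the sources used here. Column 7, the deposited peak value, is a signal, a height scaled by the authors to the depth of the library: low heights were within 0.05 of whole multiples of 1 step. The deposited cut-rate value, read as a false discovery rate (a p-value or q-value per interval), is below 0.05, and the deposited footprint value is 0.01 in every row. No deposited file gave read counts per site, so heights carry no counting interval.

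The longer of the 2 peak lists of each library was merged by 1 bp overlap, and merges were checked with bedtools 2.31.1 and tested on simulated data. Nearest genes and locations came from GENCODE mouse release 21, with exact copies of the central 36 bases and motif matches searched in the genome. The scripts ran in Python 3.11.15 with pandas 2.3.3, numpy 2.4.6, matplotlib 3.10.9 and, for exact intervals, scipy 1.17.1. Members and gene lists were chosen with earlier results of these data known. No test could be made, since all libraries form 1 group and single libraries define the members.

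Named sites were the 10 highest members, the 10 with the highest replicate 4 peaks, up to 4 per list, the genes with most members, a fixed set of marker genes, and motif families by their ratio between members and shared sites. The isolated members named for height, the blocks, the printed EBF1 sites and other members of the B cell, T cell, plasma and dendritic lists were named after their values were seen. Alternatives were the shorter peak lists, 50% reciprocal overlap, members over 500 bp from replicates 1 and 2, the highest peaks of each library in equal number, leaving out each replicate, members of the upper 50% of heights, other windows, other cut-rate limits and another gene assignment. Members with unrepeated centres, and replicate 4 overlapped after merging the others, were added after seeing the data. Some named items of this rule are not reported here.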

Additional observations from a re-analysis of the deposited data

Results flagged for a closer look

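Of 10 counts and depths compared over the 4 libraries, 3 had 1 library apart from the others. Chance flags about 1 in 20 groups of continuous values. These 3 are small counts in which the other libraries tie, so that any difference, even of 1 promoter, is flagged and that rate does not hold. Replicate 4 had 3 T cell identity promoters called where each of the others had 6. It had 0 monocyte and macrophage promoters where the others had 2, and 1 dendritic promoter where the others had 2. Replicate 4 was also the shallowest library, with 24.3 M tags, and the part of depth in these counts was not tested.

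The sex chromosomes, which the merge leaves out, held 175 replicate 3 peaks on chromosome X and 4 on chromosome Y that overlapped none of replicates 1 and 2, a signal outside the sites described above. On chromosome X replicate 3 had 1332 peaks, against 1939, 1906 and 516 in replicates 1, 2 and 4. On chromosome Y it had 20, against 48, 19 and 11. The mice are labelled female, and all 4 libraries listed peaks on chromosome Y. Whether the sequence under these peaks occurs once in the genome was not checked, so they are not read against the label. Their source was not tested.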

How the results depend on the processing

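No paired analysis was possible because the 4 libraries form 1 group. Of 86 values recomputed under other settings, 36 moved by less than the spread used and 50 by more; the causes were not tested. The 4568 members became 1844 with the shorter lists, 11225 with 50% reciprocal overlap, 2197 over 500 bp from replicates 1 and 2, 1696 with equal numbers of peaks and 2366 in the upper 50% of heights, and 4590 to 6879 leaving out replicate 1, 2 or 4; without replicate 3 no member is left. In the same 5 settings the share within 1 kb of a start (38.8%) was 56.3%, 45.7%, 22.1%, 66.0% and 46.1% (39.1% to 42.0% leaving out a replicate), and it was 27.0% and 49.6% for 0.5 and 2.5 kb. Replicate 1 intervals (27.7%) were at 72.9%, 66.4%, 4.92%, 99.2% and 37.7% (28.1% to 52.0%), and replicate 2 intervals (19.2%) at 66.8%, 58.5%, 5.05%, 98.9% and 27.7% (19.5% to 41.3%). Limits of 0.01 and 0.001 gave 19.9% and 13.0% in replicate 1 and 11.2% and 7.09% in replicate 2. Replicate 4 calls (1.77%) were 1.14% with the shorter lists, 10.7% with 50% overlap, 48.5% with equal peaks and 2.70% in the upper heights, 3.02% to 3.15% without replicate 1 or 2, and 2.24% with replicate 4 overlapped after merging the others (added after seeing the data). The relative height (0.133) was 0.377 with equal peaks, 0.144 without replicate 1 or 2 and 0.331 without replicate 4. These settings also changed the reference sites by which heights are divided, so the values do not show higher members.

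The B cell share (0.591%) was 0.347% with 50% overlap, 0.888% in the upper heights and 0.422% to 0.632% leaving out a replicate. Members exceeded shared sites with the shorter lists (0.542% against 0.148%) and with equal peaks (0.472% against 0.118%) too, where T cell identity had 0.542% against 0.309% and 0.354% against 0.417%. T cell identity (0.394%) was 0.701% by gene bodies plus 25 kb, where shared sites were 0.426%, and 0.378% to 0.398% leaving out a replicate. In windows of 50 and 200 bp the shares of members were 1.75% and 6.39% for EBF1 and 1.27% and 4.97% for RUNX, and for CTCF 0.131% at 50 bp. Unrepeated centres moved no value beyond the spread. Members were mostly low peaks, and an absent peak in replicates 1 and 2 does not itself mean absent cutting, since 33.0% of members had a cut-rate interval in at least 1 of them.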
